A study of Mus musculus with 12 samples.

Results

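The loss of BMAL1 from renal tubule cells was compared between the light and the dark phase by the interaction of genotype and time, the day-night difference in knockout kidney minus that in wild-type kidney. All 12 of the 12 libraries entered this contrast, 3 from each of 4 groups. A second fit of 11 libraries left out knockout ZT16 replicate 2, which stood apart from its group. Earlier results of these same data had set that library apart, so the second fit and its p-values are not independent of results. RNA was sequenced from whole kidneys of C57BL/6J mice. The knockout (KO) animals were Bmal1lox/lox/Pax8-rtTA/LC1 mice, in which doxycycline at 2 mg/ml in the drinking water for 2 weeks from 8 weeks of age induced LC-1 Cre through the Pax8 promoter, which is active in tubule epithelium. The wild-type (WT) animals were littermates, and the labels state neither their transgenes nor whether they drank doxycycline. Lights were on for 12 h and off for 12 h, and kidneys were taken at ZT4 (light) and ZT16 (dark). Vessels, stroma and blood were sequenced together with the tubule, so a whole-kidney level mixes cells that the Cre reaches with cells that it does not. Nothing in the labels tells if the libraries of a group are different mice, and the p-values below therefore rest on a spread between libraries that may be technical.

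BMAL1, encoded by Arntl, pairs with CLOCK or NPAS2 and activates genes through E-box elements, among them the Per and Cry genes, whose products return to inhibit the pair, and the nuclear receptor genes Nr1d1 and Nr1d2. REV-ERB proteins, the products of Nr1d1 and Nr1d2, repress and ROR proteins activate genes with ROR response elements (ROREs), such as Arntl, Npas2 and Cry1, so that these rise and fall at other hours than the direct E-box targets. PAR bZIP factors such as DBP and the repressor NFIL3 carry the rhythm on through D-box elements. In the kidney this clock runs along the nephron and times transport and metabolism, while feeding, hormones and body temperature bring further daily signals to the organ. Samples at 2 times give a difference between them and not a phase or an amplitude.

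With all libraries the clock repressor gene Cry1 and the retinol-binding-protein receptor gene Stra6l were among the genes that passed the interaction test, and both had a day-night difference in wild type that was lost in the knockout. Without KO ZT16 replicate 2 there were 5 more, Npas2, Per2, Ddc, Arhgap26 and Slc38a7. Of these, Per2 had a smaller difference in the knockout that was still called, and the others count as lost by the rule given here, although the times did not overlap in the knockout for Npas2 and Ddc. No called gene gained, enlarged or reversed its difference in either fit. A gene counts as called at a Benjamini-Hochberg adjusted p under 0.05 in edgeR's quasi-likelihood test. Its difference counts as lost where the knockout difference was not called and was under 0.5 of the wild-type one in size, and as reduced where it was smaller but did not meet that rule.

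Of these 7 genes, 5 have an entry in the RefSeq promoter table of GRCm38.p6, and Per2 and Arhgap26 have none. The windows hold 250 bases before and 50 bases after the start and were searched on both strands for the E-box CACGTG, the RORE core AGGTCA and the D-box TTATGNAA. Among 32851 windows of that length, 7.15% hold the E-box, 16.3% the RORE core and 3.38% the D-box. The bases before the start are shown for the 3 called genes with a match and for Per3, a clock gene that kept its day-night difference in the knockout. All are written 5′ to 3′ on the gene's strand, the minus strand, at chr10:85185055-85185304 for Cry1, chr8:95853492-95853741 for Slc38a7, chr11:11898145-11898394 for 1 of the 2 starts of Ddc and chr4:151044666-151044915 for Per3, with matches in capitals.
Cry1: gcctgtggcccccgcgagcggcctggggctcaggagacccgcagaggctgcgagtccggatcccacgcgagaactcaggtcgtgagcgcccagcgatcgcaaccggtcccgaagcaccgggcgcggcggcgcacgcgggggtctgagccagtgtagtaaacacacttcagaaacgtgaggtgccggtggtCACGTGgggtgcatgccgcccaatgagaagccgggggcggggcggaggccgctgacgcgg
Slc38a7: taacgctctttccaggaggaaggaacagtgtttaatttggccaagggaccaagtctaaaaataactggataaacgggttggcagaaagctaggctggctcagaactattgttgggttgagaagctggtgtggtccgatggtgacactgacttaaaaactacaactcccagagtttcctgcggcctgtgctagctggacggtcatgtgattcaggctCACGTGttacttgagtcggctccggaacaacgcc
Ddc: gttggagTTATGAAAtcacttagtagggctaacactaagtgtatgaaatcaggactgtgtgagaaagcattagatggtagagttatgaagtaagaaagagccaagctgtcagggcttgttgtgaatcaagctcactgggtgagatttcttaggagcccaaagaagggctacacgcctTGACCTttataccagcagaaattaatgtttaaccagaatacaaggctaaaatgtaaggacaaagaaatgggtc
Per3: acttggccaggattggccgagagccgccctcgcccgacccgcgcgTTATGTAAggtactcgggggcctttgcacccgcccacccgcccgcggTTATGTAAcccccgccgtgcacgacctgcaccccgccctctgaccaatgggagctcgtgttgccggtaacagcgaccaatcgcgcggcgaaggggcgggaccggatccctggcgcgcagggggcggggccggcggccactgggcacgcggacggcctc
The E-box of Cry1 begins 60 bases before the start and that of Slc38a7 begins 34 bases before it. An E-box reads alike on both strands, so each counts as 1 match. In Ddc the D-box begins 243 bases before the start, and the RORE core, on the opposite strand and so printed as its reverse complement, begins 73 bases before it. In Per3 both matches are D-boxes, at 205 and 158 bases before the start. No 2 of these matches overlap. The window of Npas2, both windows of Stra6l and that of the other start of Ddc hold none of the 3 motifs. These matches are letters in a window and not measured binding sites.

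Gene counts per library ranged from 25628887 to 38043491, on 19624 to 20558 genes with a count. In a principal component analysis KO ZT16 replicate 2 lay at 43.0 on the first axis (46.7% of the variance), against -9.73 and -11.8 for replicates 4 and 6 of its group. Mitochondrially encoded genes took 22.3% of its counts against 14.1% and 14.0% in those replicates, and WT ZT16 replicate 5, at 49.0 on the same axis, held 22.4%. Set against replicates 4 and 6, its counts gave a chi-square over degrees of freedom of 191 and 169, where replicates 4 and 6 gave 4.71 and pairs in the other groups at most 45.2. Summed markers of urothelium were at 28.6 CPM in replicate 2 against 8.53 to 17.2 CPM in the other 11 libraries, those of tubular injury at 1552 CPM against 819 to 1483 CPM, and those of the first proximal tubule segments at 7757 CPM against 8879 to 11129 CPM. Replicate 2 also lay just outside the other libraries for endothelium (485 against 497 to 578 CPM), podocytes (191.9 against 192.2 to 317.7 CPM) and erythroid cells (524 against 203 to 517 CPM). The median interaction of 8 adipocyte markers was 1.39 with 12 libraries and 0.42 with 11, and that of 6 urothelium markers 0.85 and 0.36. Yet summed adipocyte markers were at 121 CPM in replicate 2, within the 90.7 to 147 CPM of the other 11 libraries. Of these markers 3 of the 8 for adipocytes and 1 of the 6 for urothelium were under 1 CPM. The part of these cell types in the results was not tested. All measured markers of the tubule segments, podocytes and endothelium were at 1 CPM or above, 7 of 9 lymphocyte markers and 10 of 10 adrenal markers were below it, and no marker list held a member called in the interaction. In whole kidney, fewer cells of a type and less RNA per cell cannot be told apart.

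Arntl, on chromosome 7 at 113207465 to 113314126 (plus strand), was counted over the whole gene. Its level in CPM (a share of the library's counts, with library sizes scaled by TMM) was 20.01, 15.3 and 13.8 in WT ZT4, 15.95, 14.4 and 16.2 in KO ZT4, 10.5, 8.63 and 11.03 in WT ZT16, and 12.3, 13.4 and 15.0 in KO ZT16. The groups overlapped at ZT4, and at ZT16 every knockout library lay above every wild-type library. The labels do not say which exons were deleted and counts over the whole gene include any transcript left, so they do not check the genotype labels. The day-night log2 difference (ZT16 minus ZT4) was -0.71 in WT (adjusted p = 0.018) and -0.19 in KO (adjusted p = 0.336), and the interaction of 0.51 was not called (adjusted p = 1 with 12 libraries and 0.395 with 11).

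The interaction called 3 of 16150 genes with 12 libraries (0.0186%), 1 higher and 2 lower, and 8 of 16360 with 11 libraries (0.0489%), 5 higher and 3 lower. A lower interaction means that the ratio of ZT16 to ZT4 was smaller in KO than in WT. All 3 genes of the first fit were called in the second. At an unadjusted p under 0.05 the interaction was higher for 241 genes (1.49%) and lower for 299 (1.85%) with 12 libraries, and higher for 705 (4.31%) and lower for 956 (5.84%) with 11. The number of calls depended on the tool. DESeq2 called 18 genes with 12 libraries, 12 lost, 4 reduced and 2 reversed, and 107 with 11, 67 lost, 26 reduced, 7 gained, 3 enlarged and 4 reversed. Those calls held all of edgeR's.

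**Figure D1:**
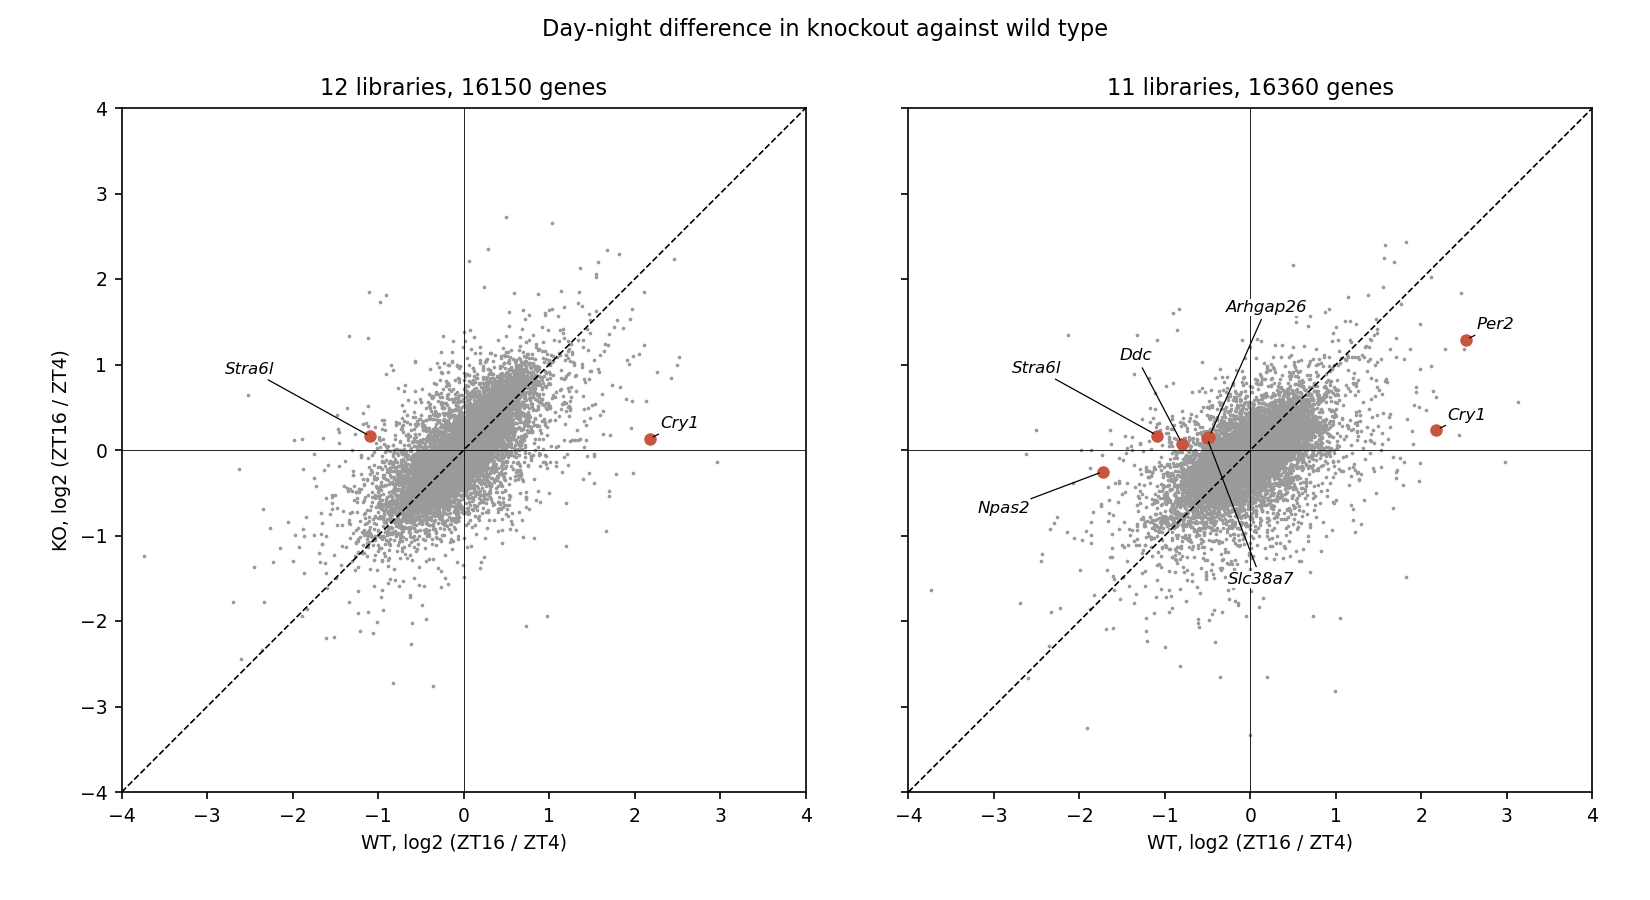
Day-night difference, log2 of ZT16 over ZT4, in wild type (horizontal axis) and knockout (vertical axis), 1 grey point per tested gene, with 12 libraries on the left and 11 on the right; red points are the called genes described in the text and the dashed line marks equal differences. All red points but Per2 lie near 0 on the vertical axis and away from 0 on the horizontal one; 1 gene on the left and 3 on the right lie outside the axes.

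Cry1, on chromosome 10 at 85131700 to 85185064 (minus strand), encodes a repressor of the CLOCK and BMAL1 pair and is a textbook RORE target as well as an E-box target. Its levels were 4.27, 3.01 and 3.74 CPM in WT ZT4 and 15.2, 18.5 and 16.3 CPM in WT ZT16. The knockout libraries held 28.0, 25.9 and 23.4 CPM at ZT4 and 23.8, 30.3 and 30.6 CPM at ZT16. Every knockout library exceeded every wild-type library and the knockout times overlapped. The rise of 2.17 ± 0.15 log2 units (SE, n = 3 libraries per group) in WT stood against 0.13 ± 0.13 in KO. This gave an interaction of -2.04 ± 0.20 (adjusted p = 0.00134), or -1.94 ± 0.17 with 11 libraries (adjusted p = 0.000117).

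Stra6l, on chromosome 4 at 45848664 to 45887008 (plus strand), encodes a membrane receptor for retinol-binding protein and fell at night in wild type. Its levels were 34.5, 30.03 and 32.3 CPM in WT ZT4 and 15.2, 14.8 and 15.4 CPM in WT ZT16. In KO they were 38.1, 45.2 and 38.3 CPM at ZT4 and 44.3, 45.6 and 45.9 CPM at ZT16. The WT ZT16 libraries were the lowest of the 12 and overlapped with no other group. The log2 difference was -1.09 ± 0.09 in WT and 0.16 ± 0.09 in KO, and the interaction 1.25 ± 0.12 (adjusted p = 0.00134), or 1.26 ± 0.12 with 11 libraries (adjusted p = 0.000288).

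Both calls held in each of the 12 fits that left out 1 library from the full set. Their values there ranged from -2.18 to -1.93 for Cry1 and from 1.19 to 1.34 for Stra6l.

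**Figure D2:**
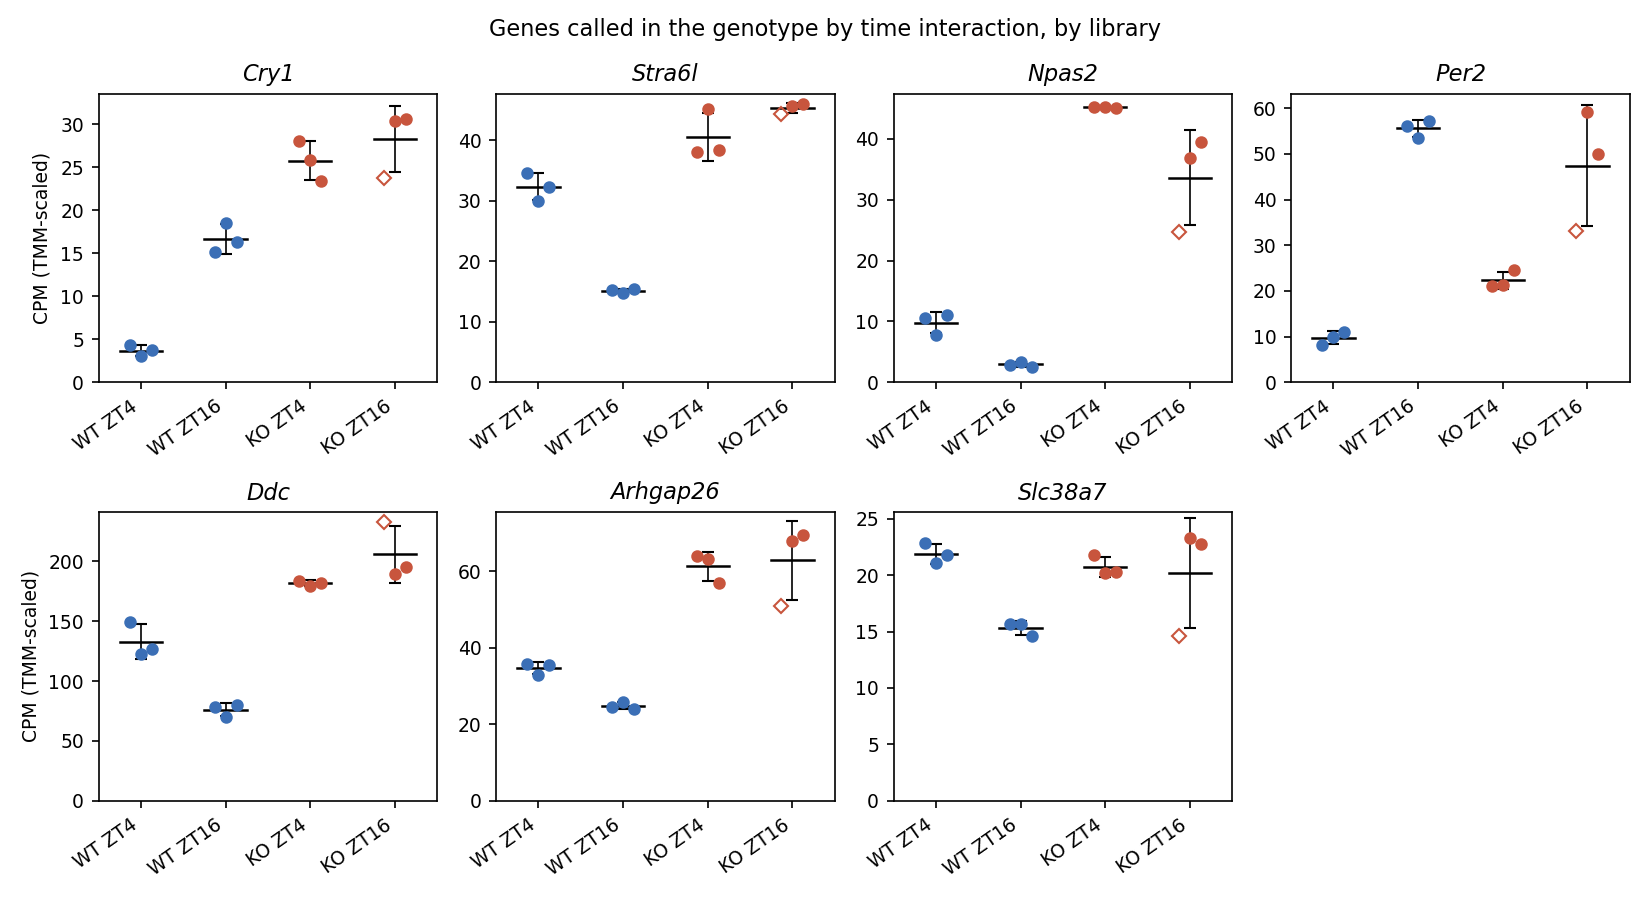
Level of 7 called genes in TMM-scaled CPM (vertical axis, from 0) in the 4 groups, 1 point per library with the group mean and SD as bars; blue is wild type, red is knockout and the open diamond is KO ZT16 replicate 2. Wild-type groups separate in all 7 panels, and in all but Per2 and Slc38a7 every knockout point lies above every wild-type point.

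The other 5 genes were called by edgeR with 11 libraries, where KO ZT16 rests on replicates 4 and 6, and not with 12. Some alternatives with all 12 libraries called all or part of them. With the mitochondrial share of counts as a covariate in edgeR the adjusted p was 0.000123 for Npas2, 0.000609 for Per2, 0.000242 for Ddc, 0.00891 for Arhgap26 and 0.0236 for Slc38a7. With limma voom and library weights all 5 were called as well, with an adjusted p of at most 0.0218. Those weights gave KO ZT16 replicate 2 only 0.093, against 0.538 to 2.29 for the other libraries, so it counted for little. Without weights limma voom called none of the 5. DESeq2 called Npas2, Per2 and Ddc. Npas2, on chromosome 1 at 39193731 to 39363236 (plus strand), encodes the partner that can stand in for CLOCK. It was at 10.5, 7.82 and 11 CPM in WT ZT4 and at 2.89, 3.36 and 2.57 CPM in WT ZT16. The KO levels were 45.3, 45.2 and 45.0 CPM at ZT4, and at ZT16 24.7 CPM in replicate 2 and 36.8 and 39.4 CPM in replicates 4 and 6. Each knockout library was thus above each wild-type library at either time. The interaction was 1.47 ± 0.17 with 11 libraries (adjusted p = 0.00257) and 1.30 ± 0.25 with 12 (adjusted p = 0.456). The WT difference of -1.72 stood against -0.25 in KO, which was not called (adjusted p = 0.163), although all KO ZT16 libraries were below all KO ZT4 libraries.

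Per2, on chromosome 1 at 91415982 to 91459324 (minus strand), encodes a period protein that represses BMAL1 and was the 1 called gene whose KO day-night difference was itself called. It rose from 8.18, 9.96 and 11.1 CPM in WT ZT4 to 56.1, 53.5 and 57.2 CPM in WT ZT16. In KO it rose from 21.1, 21.3 and 24.5 CPM at ZT4 to 33.2 CPM in replicate 2 and 59.2 and 49.98 CPM in replicates 4 and 6. The ZT4 groups did not overlap between genotypes. At ZT16 replicate 4 lay above, replicate 6 a little below and replicate 2 well below the wild-type libraries. With 11 libraries the log2 rise was 2.52 ± 0.11 in WT and 1.29 ± 0.11 in KO, both called (adjusted p = 1.89e-08 and 7.03e-05). The interaction was -1.23 ± 0.15 (adjusted p = 0.00424), against -1.42 ± 0.25 with 12 libraries (adjusted p = 0.245). With KO ZT16 replicate 4 left out of the 12, Per2 was called (adjusted p = 0.0459).

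Ddc, on chromosome 11 at 11814101 to 11898144 (minus strand), encodes aromatic L-amino acid decarboxylase, with which the proximal tubule makes dopamine from L-DOPA. The WT libraries held 150, 123 and 126 CPM at ZT4 and 78.6, 69.6 and 80.2 CPM at ZT16. The KO libraries held 184, 179 and 182 CPM at ZT4 and 233, 189 and 196 CPM at ZT16. Here KO ZT16 replicate 2 was the highest library of all, and no knockout library fell to a wild-type level. All KO ZT16 libraries lay above all KO ZT4 libraries, opposite to the order in WT, but the KO difference was not called (0.08 with 11 libraries, adjusted p = 0.61). The interaction was 0.88 ± 0.12 with 11 libraries (adjusted p = 0.00953) and 0.99 ± 0.15 with 12 (adjusted p = 0.0748).

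Arhgap26, on chromosome 18 at 38993145 to 39376284 (plus strand), encodes a GTPase-activating protein for small GTPases. It stood at 35.9, 33.0 and 35.5 CPM in WT ZT4, at 24.6, 25.8 and 24.0 CPM in WT ZT16 and at 63.9, 63.1 and 57.0 CPM in KO ZT4. In KO ZT16 it was at 51.1 CPM in replicate 2 and at 68.1 and 69.4 CPM in the others. The WT difference of -0.48 ± 0.07 stood against 0.16 ± 0.07 in KO (adjusted p = 0.193), and the interaction was 0.64 ± 0.10 with 11 libraries (adjusted p = 0.0445) and 0.52 ± 0.16 with 12 (adjusted p = 1).

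Slc38a7, on chromosome 8 at 95835920 to 95853539 (minus strand), encodes a glutamine transporter of the lysosome. It was at 22.8, 21.1 and 21.8 CPM in WT ZT4, at 21.8, 20.2 and 20.3 CPM in KO ZT4 and at 15.7, 15.7 and 14.6 CPM in WT ZT16. In KO ZT16, replicate 2 was at 14.6 CPM, like wild type, and replicates 4 and 6 were at 23.3 and 22.7 CPM. The interaction was 0.65 ± 0.11 without replicate 2 (adjusted p = 0.0445) and 0.48 ± 0.20 with it (adjusted p = 1). With all 12 libraries it was 0.59 under the covariate, which within KO ZT16 mainly sets replicate 2 apart (adjusted p = 0.0236). It was 0.66 with library weights (adjusted p = 0.0218), which gave replicate 2 only 0.093.

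Among these 5, leaving out a further library kept the call of Npas2 in 11 of 11 fits and that of Per2 in 10 of 11, all but the fit without KO ZT16 replicate 6 (adjusted p = 0.0722). The call of Ddc held in 8 of 11 and was lost without KO ZT4 replicate 4, KO ZT16 replicate 4 or KO ZT16 replicate 6, with an adjusted p up to 0.134. Without KO ZT16 replicate 4 or 6 that group rests on 1 library, which is taken to vary like the others. Those of Arhgap26 and Slc38a7 each held in 2 of 11, the fits without WT ZT4 replicate 3 and without WT ZT16 replicate 5, and elsewhere reached an adjusted p of up to 0.32. Their interaction stayed between 0.59 and 0.68 for Arhgap26 and between 0.62 and 0.69 for Slc38a7.

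Set by level, these 7 genes differed most between genotypes at the hour when wild type was low. Cry1 was 7.02-fold higher in KO at ZT4, its low time in WT, and 1.70-fold higher at ZT16. Per2 was 2.29-fold higher at ZT4 and at 0.854 of the wild-type level at ZT16, or at 0.982 of it over replicates 4 and 6. The 5 genes that were low at ZT16 in WT showed the mirror image in time. Npas2 was 11.4-fold higher in KO at ZT16 and 4.63-fold at ZT4, and Stra6l 2.99-fold and 1.26-fold. Ddc was 2.71-fold and 1.37-fold higher, and Arhgap26 2.53-fold and 1.76-fold. Slc38a7 was 1.32-fold higher at ZT16, or 1.502-fold over replicates 4 and 6, and at 0.947 of wild type at ZT4. Every knockout library exceeded every wild-type library at the wild-type low time in 6 of the 7 genes, Slc38a7 excepted, and at the wild-type high time in 5, Per2 and Slc38a7 excepted. The mean of KO at the wild-type low time was at 1.40 to 3.44 times the wild-type high level in Cry1, Stra6l, Npas2, Ddc and Arhgap26, and at 0.401 and 0.922 of it in Per2 and Slc38a7. These ratios are descriptions of genes selected by the interaction and carry no test of their own. In each of these genes the interaction was opposite in sign to the WT difference. A larger ratio of KO to WT at the wild-type low time than at the high time follows from that and is not a further result.

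Among the RORE clock genes, Cry1 was called lower in both fits and Npas2 was called higher with 11 libraries. Nfil3, a repressor at D-boxes, was at 7.62, 5.19 and 5.45 CPM in WT ZT4 and 11.9, 12.5 and 25.04 CPM in WT ZT16. In KO it was at 16.5, 18.9 and 21.8 CPM at ZT4 and 17.03, 22.5 and 22.5 CPM at ZT16. As in Cry1, the wild-type times separated and the knockout times overlapped. Unlike in Cry1, 1 wild-type library, WT ZT16 replicate 5 at 25.04 CPM, lay above every knockout library. The Nfil3 interaction of -1.31 was not called (95% interval -2.11 to -0.51, adjusted p = 1, or 0.323 with 11 libraries). With 11 libraries and no filter on low counts Nfil3 was called (adjusted p = 0.000269), as were Cry2, Bhlhe40 and Nr1d1. Clock, which encodes the partner of BMAL1, moved the other way. It was at 70.3, 66.9 and 62.6 CPM in WT ZT4, 73.6, 68.7 and 83.3 CPM in WT ZT16, 74.8, 70.6 and 70.1 CPM in KO ZT4 and 99.5, 103 and 93.8 CPM in KO ZT16. Its day-night difference was called in KO (0.46, adjusted p = 0.0128) and not in WT (0.17, adjusted p = 0.193), while the interaction that compares them was not called (0.29, 95% interval 0.02 to 0.55, adjusted p = 1). Rora, another ROR gene, had an interaction of -0.29 (95% interval -0.59 to 0.01), also not called.

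Of 14 E-box clock genes, none was called with 12 libraries and Per2 was called lower with 11. At an unadjusted p under 0.05 there were 6 lower and 1 higher in each fit, beside 1.85% lower and 1.49% higher over all genes with 12 libraries and 5.84% and 4.31% with 11. The 14 had a median interaction of -0.29 with 12 libraries and -0.18 with 11, against 0.03 and -0.02 over all tested genes. The 6 lower genes were Per2, Cry2, Bhlhe40, Usp2, Hlf and Wee1. Cry2, the second cryptochrome gene, stood at 16.9, 15.6 and 17.5 CPM in WT ZT4, 23.7, 23.5 and 19.5 CPM in WT ZT16, 34.4, 36.5 and 32.1 CPM in KO ZT4 and 22.6, 30.01 and 32.9 CPM in KO ZT16. Its day-night difference was 0.41 in WT and -0.27 in KO with 12 libraries, neither of them called (adjusted p = 0.0755 and 0.152), and that of WT was called with 11 (0.42, adjusted p = 0.00394). The interaction of -0.68 was not called (adjusted p = 1, or 0.189 with 11 libraries, where DESeq2 called it). The mitochondrial covariate gave a call for Cry2 in both fits (adjusted p = 0.0202 and 0.0273). Exons of Cry2 share 4.67% of their bases with a gene on the opposite strand.

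Bhlhe40 encodes the repressor DEC1. It went from 56.5, 70.3 and 73.6 CPM at ZT4 to 126, 148 and 121 CPM at ZT16 in WT, and from 84.1, 73.9 and 91.0 CPM to 59.0 CPM in replicate 2 and 111 and 112 CPM in replicates 4 and 6 in KO. Without replicate 2 the knockout groups separated too, and the interaction was -0.80 with 12 libraries (adjusted p = 1) and -0.57 with 11 (adjusted p = 0.29). Its exons share 2.51% of their bases with a gene on the opposite strand. Usp2, a deubiquitinase gene under clock control, and Wee1, a mitotic kinase gene with E-boxes, rose at night in WT by 0.65 and 0.94 log2 units (adjusted p = 0.0306 and 0.00609). Their KO differences, 0.05 and 0.33, were not called (adjusted p = 0.816 and 0.15), nor were their interactions of -0.59 and -0.61 (adjusted p = 1 for each). Hlf, a PAR bZIP gene, had an interaction of -0.50 that was not called either.

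Nr1d1, the gene of REV-ERBα, was the 1 E-box gene with a higher interaction at an unadjusted p under 0.05. Its levels were 51.5, 60.5 and 68.5 CPM in WT ZT4, 11, 8.15 and 8.67 CPM in WT ZT16, 13.1, 18.5 and 17.1 CPM in KO ZT4 and 4.82, 5.10 and 4.27 CPM in KO ZT16. It fell at night in both genotypes, by 2.70 log2 units in WT and by 1.77 in KO (adjusted p = 1.45e-05 and 0.000469), and no 2 groups overlapped. The interaction of 0.92 had a 95% interval of 0.43 to 1.42 and was not called (adjusted p = 0.846, or 0.246 with 11 libraries, where DESeq2 called it). Exons of Nr1d1 share 8.55% of their bases with Thra on the opposite strand.

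A day-night difference was also present in both genotypes for Per3, a period gene. It rose from 16.6, 19.7 and 23.3 CPM to 31.2, 34.7 and 33.5 CPM in WT and from 7.66, 8.997 and 10.01 CPM to 18.1, 16.1 and 14.6 CPM in KO. Knockout libraries were lower at each hour, and the log2 rise was 0.73 ± 0.13 in WT and 0.87 ± 0.14 in KO (adjusted p = 0.00991 and 0.0071). The interaction of 0.14 had a 95% interval of -0.28 to 0.55, and with 11 libraries it was 0.05 with an interval of -0.33 to 0.43.

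Nr1d2 and Dbp were low in KO at both hours, and no day-night difference of either was called in either genotype. Nr1d2, the gene of REV-ERBβ, held 94.3 to 117 CPM over the 6 WT libraries and 20.98 to 33.7 CPM over the 6 KO libraries. Dbp, whose product binds D-boxes, held 20.9 to 32.3 CPM in WT and 6.08 to 11.1 CPM in KO. Neither gene's genotypes overlapped. Their interactions were 0.04 (95% interval -0.40 to 0.48) and 0.11 (-0.50 to 0.71) with 12 libraries, and -0.16 and -0.08 with 11, so their sign turned with replicate 2. Exons of Dbp share 18% of their bases with Sphk2 on the opposite strand.

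Per1, another period gene, spread widely within groups. Its levels were 10.2, 10.2 and 20.7 CPM in WT ZT4 and 7.80, 17.6 and 17.8 CPM in KO ZT16, and the interaction interval ran from -1.38 to 0.62. Among 12 other clock components and regulators, such as kinase and ubiquitin ligase genes that act on PER and CRY proteins, none was called in either fit. At an unadjusted p under 0.05 there was none with 12 libraries.

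**Figure D3:**
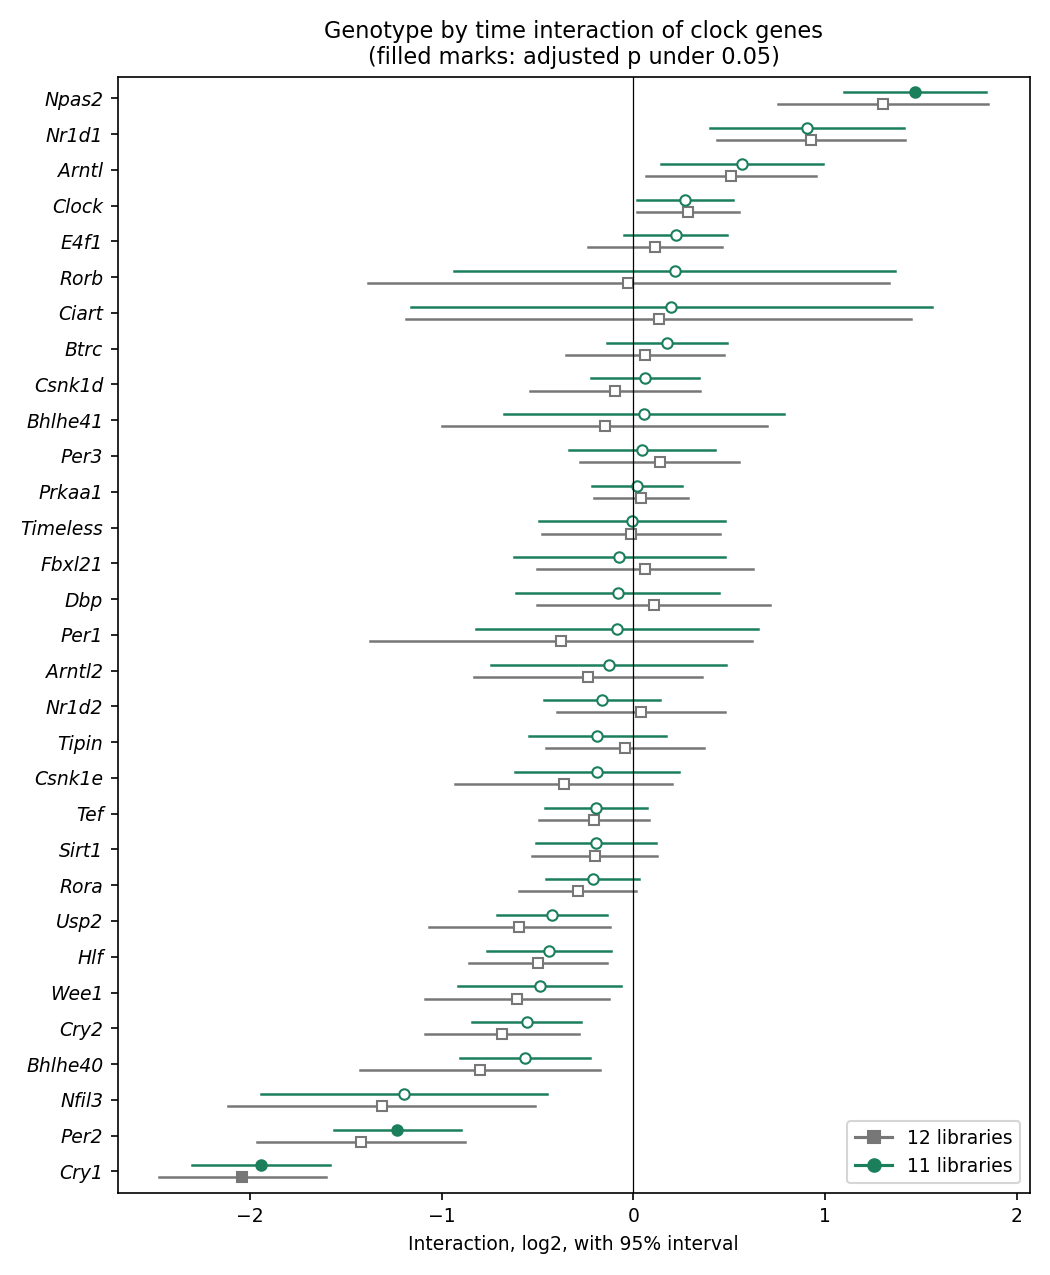
Interaction of genotype and time on the log2 scale (horizontal axis) for 31 clock genes, ordered by the 11-library value, with 95% intervals; grey squares are the fit of 12 libraries and green circles that of 11, filled where the adjusted p is under 0.05. Cry1 and Per2 lie lowest and Npas2 highest, and most other intervals include 0.

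Outside the clock lists, Ddc was the 1 member of the 22 other pathway lists that was called in either fit. Over all genes the day-night differences of the genotypes had a Pearson r of 0.696 over 16150 genes with 12 libraries and 0.535 over 16360 with 11, a description over genes that share libraries and scaling. In WT 1050 genes (6.50%) differed between the times with 12 libraries and 5473 (33.5%) with 11. In KO 1691 genes (10.5%) and 1309 (8.00%) did. The order of the genotypes in these counts turned with replicate 2. The WT libraries were the same in both fits. The median standard error of the WT difference was 0.152 log2 units with 12 libraries and 0.110 with 11. Of the genes called in WT, 97.4% had the same sign in KO with 12 libraries and 92.8% with 11, and the median ratio of the KO to the WT log2 difference was 0.792 and 0.549. Of the genes called in KO, 98.5% and 96.6% had the same sign in WT, with a median ratio of WT to KO of 0.770 and 0.879. Each ratio is over genes chosen for a call in 1 genotype, which by itself favours a ratio under 1. These ratios therefore do not measure a general damping in either genotype. Of the genes called in both genotypes, all 602 shared a sign with 12 libraries and 994 of 996 with 11.

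Most endoplasmic reticulum stress genes, the chaperones and regulators of protein folding in that compartment, were called higher at night in each genotype. Of 21 tested, 12 were called higher in WT and 16 in KO with 12 libraries, 12 of them in both, and 17 and 15 with 11 libraries, 15 in both. None was called lower. Over all genes 6.50% in WT and 10.5% in KO were called in either direction with 12 libraries, and 33.5% and 8.00% with 11. The median log2 difference was 0.58 in WT and 0.59 in KO with 12 libraries. No member was called in the interaction in either fit, and its values ran from -0.46 to 0.21 with 12 libraries and from -0.39 to 0.32 with 11. At an unadjusted p under 0.05 no member passed with 12 libraries. With 11 libraries 3 were lower, Dnajb9, Herpud1 and Atf4, and 0 higher, where the lower share over all genes was 5.84%. Hspa5, the gene of the chaperone BiP, was at 891, 653 and 514 CPM in WT ZT4 and 1426, 1446 and 1730 CPM in WT ZT16, and at 676, 603 and 401 CPM in KO ZT4 and 1595, 1332 and 1406 CPM in KO ZT16. The times did not overlap in either genotype, and the rises of 1.16 and 1.37 (adjusted p = 0.00972 and 0.00633) gave an interaction of 0.20 with a 95% interval of -0.43 to 0.84. Herpud1, a gene of protein degradation at that membrane, rose in both genotypes from a lower level in KO: 248, 256 and 237 to 476, 489 and 483 CPM in WT, and 173, 160 and 188 to 285, 282 and 299 CPM in KO. Its interaction with 12 libraries was -0.23 (95% interval -0.47 to 0.000878, adjusted p = 1). Hspa5 and Herpud1, like Hspa8, Hspa1a, Hspa1b, Fos, Egr1, Egr2, Nr4a1 and Tsc22d3 in what follows, were chosen after their values were seen.

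Heat shock and temperature-linked genes showed nearly the same day-night calls in both genotypes. Of 18, 12 were higher and 1 lower at night in WT and 11 higher and 1 lower in KO with 12 libraries. The 11 and the 1 called in KO were called in WT as well, and the 1 lower gene was Cirbp, which cold induces. Over all genes 6.50% in WT and 10.5% in KO were called in either direction. At an unadjusted p under 0.05 the interaction was lower for 2 of the 18 with 12 libraries, Hspa1a and Hspa1b. With 11 libraries it was lower for 4, with Dnaja1 and Hspe1 added. None was higher or called in either fit, and the lower share over all genes was 1.85% and 5.84%. Hspa8, a constitutive chaperone gene, was at 446, 447 and 384 CPM in WT ZT4, 1080, 867 and 1114 CPM in WT ZT16, 356, 354 and 320 CPM in KO ZT4 and 987, 757 and 685 CPM in KO ZT16. Its rises were 1.26 in WT and 1.24 in KO and the interaction -0.02 (95% interval -0.45 to 0.40). The inducible chaperone genes Hspa1a and Hspa1b, near-identical copies, had lower interactions (-1.35 and -1.498). Reads aligned to several places were set aside as not unique, so the count of each copy rests on reads that tell the copies apart. Hspa1b was at 10.5, 12.7 and 14.6 CPM in WT ZT4 and 74.7, 64.2 and 74.1 CPM in WT ZT16, and at 14.1, 15.2 and 14.1 CPM in KO ZT4 and 20.8, 43.4 and 22.2 CPM in KO ZT16. All WT ZT16 libraries lay above all others. The rise of 2.49 in WT stood against 0.996 in KO, each called. The interaction (95% interval -2.21 to -0.78) was not called in either fit (adjusted p = 0.669, or 0.154 with 11 libraries). With 12 libraries DESeq2 called it, as did edgeR with the mitochondrial covariate. Without KO ZT16 replicate 4, the highest of its group, edgeR called Hspa1b in both fits, on 2 libraries of the group in the first and 1 in the second.

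Immediate early genes, which code for transcription factors and feedback regulators that cells switch on within minutes of a stimulus, leaned one way without a call. All 20 tested members had an interaction below 0 in both fits. At an unadjusted p under 0.05 there were 13 lower and 0 higher with 12 libraries and again with 11, while no member was called in either fit. Some alternatives did call members, such as Ier5 under the mitochondrial covariate with 12 libraries and Btg2 with 11 libraries and no filter on low counts. Over all genes the lower share was 1.85% and 5.84% and the higher share 1.49% and 4.31%. The median interaction of the 20 was -0.93 in each fit, against 0.03 with 12 libraries and -0.02 with 11 over all tested genes. At night 7 were called higher in WT with 12 libraries and 12 with 11, against 1 higher and 2 lower in KO in each fit. Over all genes 6.50% and 33.5% were called in WT in either direction, and 10.5% and 8.00% in KO. The median WT difference of the list was 1.05 in each fit. The members share libraries, so their values are not separate observations.

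Egr2 had the lowest interaction of the list. Its levels were 0.209, 0.714 and 0.766 CPM in WT ZT4, 5.98, 3.76 and 3.33 CPM in WT ZT16, 0.898, 0.278 and 1.02 CPM in KO ZT4 and 0.650, 0.658 and 0.615 CPM in KO ZT16. The WT ZT16 libraries stood apart from the other 9, and the interaction was -3.10 (95% interval -4.55 to -1.65, adjusted p = 0.608, or 0.17 with 11 libraries). DESeq2 called Egr2 with 12 libraries and with 11. Fos was at 3.70, 8.68 and 3.89 CPM in WT ZT4 and 21.5, 20.6 and 13.3 CPM in WT ZT16, and at 8.21, 3.35 and 14.6 CPM in KO ZT4 and 5.64, 6.86 and 8.72 CPM in KO ZT16. Its WT groups did not overlap, while KO ZT4 spread across both. Egr1 and Nr4a1 had interactions of -1.90 and -2.23 (adjusted p = 1 for each), and in both KO ZT4 replicate 4 was below replicates 2 and 6: 22.1 against 64.7 and 76.5 CPM for Egr1, and 4.28 against 7.76 and 18.04 CPM for Nr4a1.

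**Figure D4:**
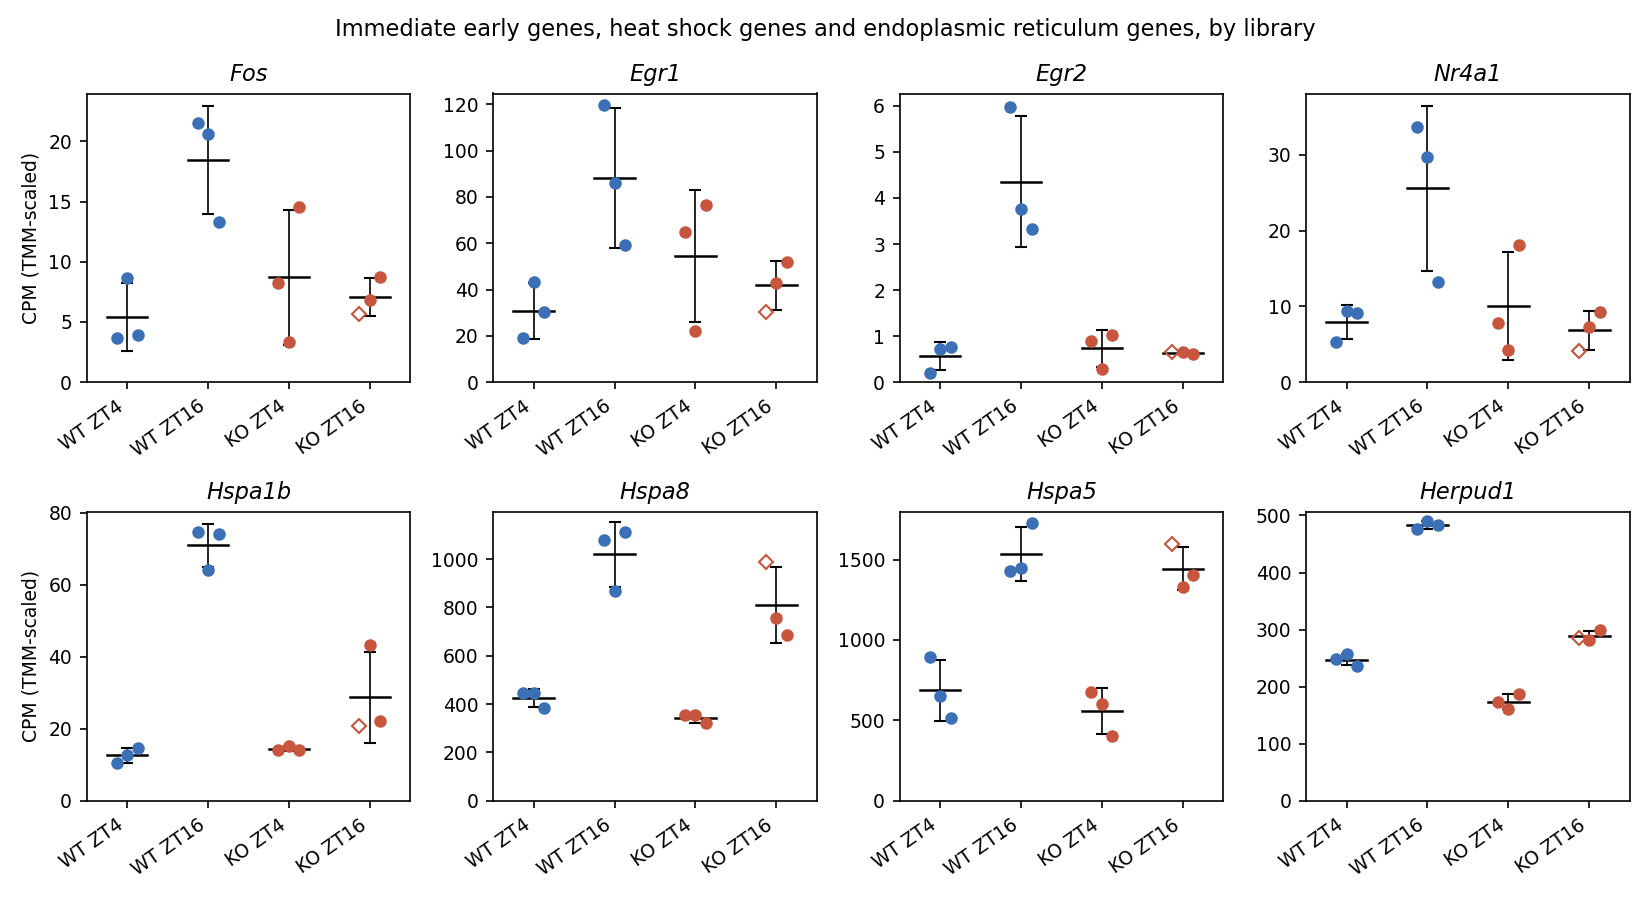
Level in TMM-scaled CPM (vertical axis, from 0) of 4 immediate early genes (Fos, Egr1, Egr2, Nr4a1), 2 heat shock genes (Hspa1b, Hspa8) and 2 endoplasmic reticulum genes (Hspa5, Herpud1) in the 4 groups, 1 point per library with the group mean and SD; the open diamond is KO ZT16 replicate 2. Egr2 and Hspa1b are high in the 3 WT ZT16 libraries, whereas Hspa8, Hspa5 and Herpud1 rise at ZT16 in both genotypes.

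Of 16 glucocorticoid response genes none was called in the interaction. Their median interaction was -0.04 with 12 libraries and -0.09 with 11, and 9 were below 0 in each fit. At an unadjusted p under 0.05, 1 was lower with 12 libraries and 4 with 11, and none was higher. Over all genes the lower share was 1.85% and 5.84%. With 12 libraries the values ran from -0.99, that of Tsc22d3, to 0.40. Tsc22d3, a classical target of the receptor, was at 35.9, 38.2 and 35.1 CPM in WT ZT4, 116, 114 and 84.5 CPM in WT ZT16, 58.3, 52.4 and 68.6 CPM in KO ZT4 and 71.6, 91.5 and 97.4 CPM in KO ZT16. It rose in both genotypes, by 1.53 in WT and by 0.54 in KO (adjusted p = 0.000247 and 0.0402), and its groups separated between the times in each. The interaction of -0.99 (95% interval -1.44 to -0.54) was not called in either fit (adjusted p = 0.528, or 0.119 with 11 libraries). Alternatives that called Tsc22d3 included DESeq2 and limma voom with library weights with 12 libraries. With 11 libraries they included edgeR with the mitochondrial covariate, and edgeR when WT ZT16 replicate 5 was left out as well.

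The interaction of nuclear respiratory chain and cytosolic ribosomal protein genes changed with the library left out. With 12 libraries 0 of 42 and 1 of 36 were lower at an unadjusted p under 0.05, and with 11 libraries 15 and 13 were, with none higher or called. The lower share over all genes was 1.85% and 5.84%. The median interaction of these lists moved from 0.04 to -0.26 and from 0.05 to -0.22. In WT 31 of the 42 and 25 of the 36 were called higher at night with 11 libraries, against 0 and 2 with 12. The share of all genes called in WT in either direction was 33.5% and 6.50%. The WT libraries were the same in both fits, and the WT medians of the lists hardly moved. With 12 and 11 libraries they were 0.389 and 0.395 for respiratory chain genes and 0.426 and 0.431 for ribosomal genes. The spread is estimated over all groups, and the median standard error of the WT difference was 0.152 with 12 libraries and 0.110 with 11. KO ZT16 replicate 2 and WT ZT16 replicate 5 had the largest mitochondrial shares of counts, and the part of that share in these lists was not tested. Of 11 mitochondrially encoded mRNAs none passed an unadjusted p of 0.05 in either fit, and their median interaction was 0.33 with 12 libraries and -0.14 with 11.

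**Figure D5:**
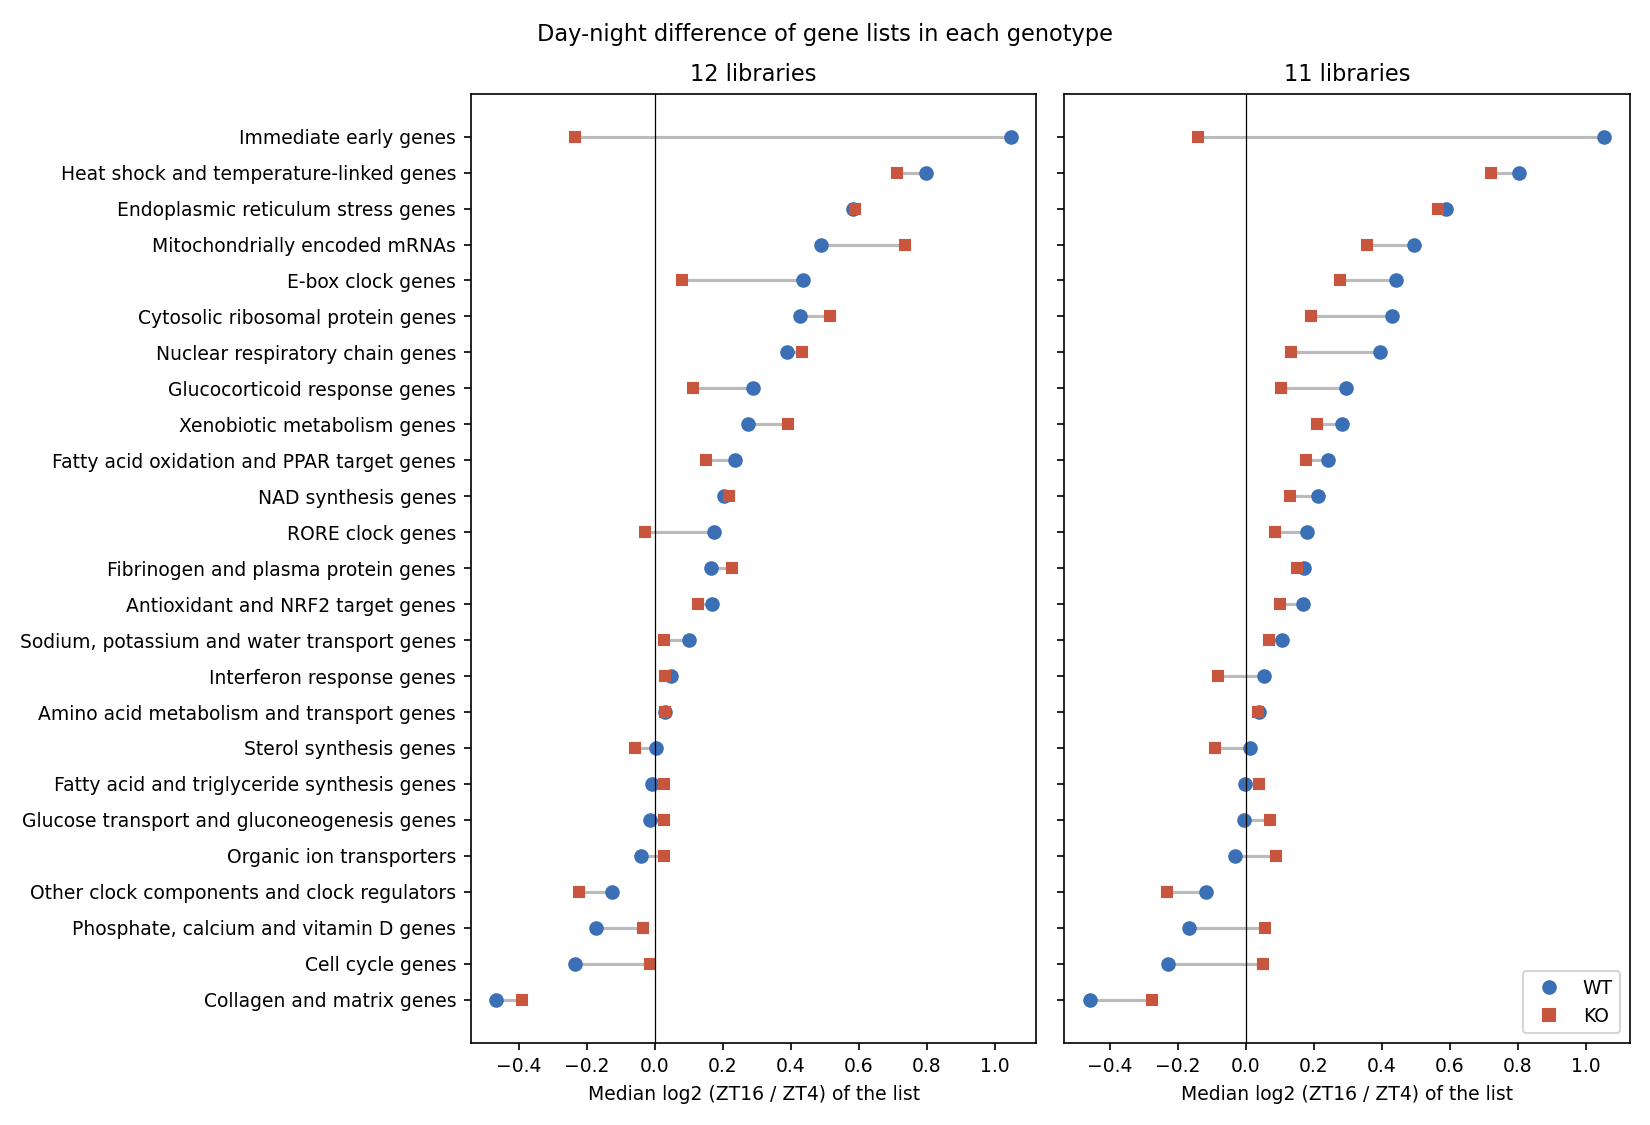
Median day-night difference, log2 of ZT16 over ZT4 (horizontal axis), of 25 gene lists in wild type (blue circles) and knockout (red squares), with 12 libraries on the left and 11 on the right. Immediate early genes have the widest gap, 1.05 in WT against -0.23 in KO with 12 libraries. Heat shock and endoplasmic reticulum stress genes lie close together in both panels. Ribosomal and respiratory chain genes change between the panels in KO and hardly in WT.

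In the remaining lists of transport and metabolism the interaction called no member but Ddc. At an unadjusted p under 0.05 with 12 libraries there were 1 higher and 2 lower of 42 amino acid genes, 1 and 1 of 38 fatty acid oxidation and PPAR genes, 1 and 1 of 34 xenobiotic genes, 1 and 0 of 21 organic ion transporters, 0 and 1 of 35 sodium, potassium and water transport genes, 0 and 1 of 23 phosphate, calcium and vitamin D genes, and 0 and 1 of 25 glucose genes. There were 1 and 1 of 23 sterol synthesis genes, 0 and 1 of 20 fat synthesis genes, 1 and 0 of 12 NAD synthesis genes, 0 and 1 of 23 plasma protein genes, 1 and 0 of 23 collagen and matrix genes and 3 and 1 of 22 cell cycle genes. Over all genes the same shares were 1.49% and 1.85%. With 11 libraries, where the shares over all genes were 4.31% and 5.84%, there were 7 higher and 5 lower amino acid genes, 1 and 6 xenobiotic genes, 2 and 4 fatty acid oxidation and PPAR genes, 2 and 0 organic ion transporters, 3 and 3 sodium, potassium and water genes, 2 and 3 phosphate, calcium and vitamin D genes, and 1 and 1 glucose genes. Likewise there were 0 and 2 sterol synthesis genes, 1 and 1 fat synthesis genes, 1 and 2 NAD synthesis genes, 1 and 2 plasma protein genes, 4 and 0 collagen and matrix genes and 4 and 1 cell cycle genes. Interferon response and NRF2 target genes had none in either direction with 12 libraries, and 0 and 1 lower with 11.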

How the data were processed

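Whole-kidney poly(A) RNA was sequenced from 12 libraries with a stranded kit, per the labels' protocols. Read counts per gene were deposited by the authors. The submitters' processing notes name cutadapt 1.2.1, TopHat2 2.0.9, HTSeq 0.5.4p3 and GRCm38, and give no annotation release, strand option or overlap mode for the counting. HTSeq summary rows were removed, of which no feature made up 3.50% to 5.96%, ambiguous 0.411% to 0.534% and not unique 30.8% to 43.0%, the last highest in KO ZT16 replicate 2. GENCODE M21 named 37607 of 38924 gene IDs. edgeR 4.0.16 (R 4.3.3) fitted quasi-likelihood models to the 4 groups after its expression filter and TMM scaling, with 12 libraries and without KO ZT16 replicate 2, and p-values were adjusted by Benjamini-Hochberg over all genes tested. The code was tested on simulated data. Alternatives were DESeq2 1.42.0, limma 3.58.1 voom with and without library weights, relative log expression scaling, other filters, the mitochondrial share as a covariate, a replicate block and leaving out each library. Named genes were Arntl, the clock lists and the called genes, at most 6 per class and direction without KO ZT16 replicate 2 with a mean of at least 5 CPM. Members and lists were chosen with earlier results of these data known. A called gene and a further clock list member are not reported here.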

Additional observations from a re-analysis of the deposited data

Results flagged for a closer look

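The day-night difference of 7 genes differed between genotypes by the interaction test itself. With 12 libraries the log2 interaction was -2.04 for Cry1 and 1.25 for Stra6l. With 11 libraries it was -1.94 for Cry1, 1.26 for Stra6l, 1.47 for Npas2, -1.23 for Per2, 0.88 for Ddc, 0.64 for Arhgap26 and 0.65 for Slc38a7. In edgeR's test with TMM scaling and the expression filter the last 5 passed without KO ZT16 replicate 2 and not with it, and Arhgap26 and Slc38a7 are the least stable of them, each called in 2 of 11 fits that left out a further library.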

How the results depend on the processing

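Cry1 and Stra6l lost their calls only with replicate number as a block. Of the other 5 genes, called without KO ZT16 replicate 2, Npas2 lost its call only with the block, while Per2, Ddc, Arhgap26 and Slc38a7 lost theirs with the block and in the fits without a further library that are named beside them. The interaction called 3 to 8 genes when each library was left out of the 12, and 4 to 16 when each was left out of the 11. The time difference of WT called 220 to 5473 and 3235 to 5623 genes, and that of KO 181 to 3629 and 58 to 2066. With 12 libraries DESeq2 called 18 genes in the interaction, 2149 in WT and 3705 in KO. The mitochondrial share as a covariate gave 48, 2578 and 938, and limma voom with library weights 17, 4080 and 5007. With 11 libraries the interaction called 171 genes with no filter on low counts and 107 with DESeq2, and the covariate gave 34, 654 and 457. With 12 libraries the covariate and the library weights each called all 5 of Npas2, Per2, Ddc, Arhgap26 and Slc38a7. On the same 12, DESeq2 called the first 3 of them, and edgeR with no filter on low counts called Ddc (adjusted p = 0.0373). The library weights gave KO ZT16 replicate 2 only 0.093, and the covariate mainly sets that replicate apart within its group. The cause of these moves was not tested.

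Replicate numbers did not pair the libraries: correlations of deviations within a number ran from -0.266 to 0.0542, and 1 of 6 libraries matched its own number best. With the replicate block the interaction called 1 gene in each fit, and Cry1 had an adjusted p of 0.122 and 0.0606 and Stra6l of 0.0771 and 0.0606. WT called 229 and 2924 genes and KO 189 and 89. Under the block with 11 libraries the sign turned for Ciart (-0.193), Per3 (-0.0618), Bhlhe41 (-0.0565) and Timeless (0.0417).

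Other uncalled clock genes near 0 changed sign as well. With 12 libraries, scaling by relative log expression gave 0.0021 for Timeless. The covariate gave -0.084 for Nr1d2, 0.0339 for Csnk1d, 0.183 for Rorb, -0.0121 for Fbxl21, 0.0196 for Bhlhe41 and 0.0206 for Timeless. Library weights gave -0.124 for Nr1d2, 0.0333 for Csnk1d, 0.178 for Rorb, -0.164 for Dbp, -0.245 for Ciart, -0.162 for Fbxl21 and -0.0152 for Per3. With 11 libraries Timeless was 0.0117 with relative log expression and 0.0123 with DESeq2, and Bhlhe41 was -0.0439 with the covariate. Leaving out 1 library turned the sign, over the ranges given, of Bhlhe41 (-0.331 to 0.0905), Btrc (-0.0627 to 0.177), Ciart (-0.391 to 0.478), Csnk1d (-0.196 to 0.0607), Dbp (-0.086 to 0.261), Fbxl21 (-0.0939 to 0.229), Nr1d2 (-0.164 to 0.187), Prkaa1 (-0.0183 to 0.0949), Rorb (-0.522 to 0.237), Timeless (-0.118 to 0.0665) and Tipin (-0.188 to 0.0424) with 12 libraries, and of Arntl2 (-0.323 to 0.0697), Bhlhe41 (-0.111 to 0.31), Ciart (-0.318 to 0.56), Csnk1d (-0.0293 to 0.149), Dbp (-0.298 to 0.0900), Fbxl21 (-0.217 to 0.108), Per1 (-0.508 to 0.0972), Per3 (-0.0745 to 0.162), Prkaa1 (-0.0452 to 0.0777), Rorb (-0.308 to 0.538) and Timeless (-0.185 to 0.168) with 11. No gene called by edgeR in either fit changed sign.

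With 3 libraries a group, the median standard error of the interaction was 0.214 log2 units, and 0.163 with 11 libraries, and an interaction of about that size lies within the error for a gene of median precision.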
